A study of Mus musculus with 4 samples.

Results

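Broad distal peaks of H3K27ac, those at least 4000 bp wide and away from annotated transcription start sites (TSSs), numbered 376 of the 72027 peaks in the replicated list from mouse left cerebral cortex. They were chosen by their measured width: an autosomal peak was a member if it spanned 4000 bp or more and touched no window of 1 kb on either side of a coding or long non-coding TSS of the GENCODE vM21 basic annotation on mm10. The members made up 0.726% of the 51786 autosomal distal peaks and 5.23% of the length those peaks covered. The comparisons below set them against the 51410 distal peaks under 4000 bp, against the 2511 of these that were 2000 bp wide or more (written below as 2000 to 4000 bp), and against the 450 autosomal peaks of 4000 bp or more that did touch a TSS window, here called broad promoter peaks.

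The tissue came from female B6CASTF1/J mice aged 2 months, the first-generation offspring of C57BL/6J and CAST/EiJ parents. The 4 samples form 1 group, made of 2 pools named I and J with 4 biosamples in each, with 2 technical libraries sequenced for each pool. There was no treatment and no other tissue or genotype. Values exist per pool and not per animal, cortex is a mixture of cell types, and more cells with a marked region cannot be told apart from more marking per cell.

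H3K27ac is an acetyl group on lysine 27 of histone H3, placed mainly by the coactivators p300 and CBP, and it marks nucleosomes beside active promoters and enhancers. Enhancers are stretches of DNA that bind transcription factors and raise the activity of genes that can lie far away, so the nearest gene names a neighbour and not a target. Long, nearly unbroken stretches of the mark are known from genes that define a cell type, where several enhancer elements stand close together. Neurons express many long genes, and their introns often hold enhancers.

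The sequences at the summits of members with high signal show that this class holds unlike kinds of DNA. The summit is the base at which the authors' peak caller placed the highest enrichment, and the bases within 100 bp of it are printed from the mm10 reference with every CpG dinucleotide in capitals, since CpG density separates promoter-like from other regulatory DNA. The Chd2 and Ppara summits are rich in CpG, and the Ski and Nr1d1 summits are not. The reference carries the C57BL/6J letters, and the CAST/EiJ copy present in these mice can differ.
Chd2, chr7:73618089-73618289, plus strand: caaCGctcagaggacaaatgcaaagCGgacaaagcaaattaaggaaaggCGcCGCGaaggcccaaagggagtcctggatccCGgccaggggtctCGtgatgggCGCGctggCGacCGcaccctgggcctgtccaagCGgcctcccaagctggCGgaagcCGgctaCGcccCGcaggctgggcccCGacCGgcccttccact
Ppara, chr15:85670342-85670542, plus strand: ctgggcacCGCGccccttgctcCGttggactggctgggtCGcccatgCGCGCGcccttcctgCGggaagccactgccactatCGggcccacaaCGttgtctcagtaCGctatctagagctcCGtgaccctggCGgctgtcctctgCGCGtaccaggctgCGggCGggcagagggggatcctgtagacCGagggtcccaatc
Ski, chr4:155235547-155235747, plus strand: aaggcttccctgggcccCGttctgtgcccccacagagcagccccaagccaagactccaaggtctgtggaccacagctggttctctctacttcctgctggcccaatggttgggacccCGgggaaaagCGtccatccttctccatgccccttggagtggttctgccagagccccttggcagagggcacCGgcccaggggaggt
Nr1d1, chr11:98783104-98783304, plus strand: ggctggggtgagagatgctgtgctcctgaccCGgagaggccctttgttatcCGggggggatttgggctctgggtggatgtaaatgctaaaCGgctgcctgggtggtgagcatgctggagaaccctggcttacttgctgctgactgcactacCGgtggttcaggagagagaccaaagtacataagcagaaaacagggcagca
The Chd2 and Ppara windows each held 18 CpG dinucleotides, at 67.2% and 67.7% GC, and the Ski and Nr1d1 windows each held 4, at 63.7% and 56.7% GC. The ratio of observed to expected CpG was 0.794 for Chd2 and 0.784 for Ppara, against 0.198 for Ski and 0.266 for Nr1d1.

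Width, the measure the members were chosen on, had a median of 4872 bp and a maximum of 14344 bp, and 197 of the 376 members were under 5000 bp. Just inside the threshold lay, among others, members nearest to Dlgap3 (4004 bp), Cry2 (4009 bp), Capn12 (4011 bp) and Myt1l (4013 bp), with signals of 7.68, 6.53, 8.83 and 8.29. Just outside lay distal peaks nearest to Meltf (3994 bp), Prss52 (3993 bp), B9d1 (3988 bp), Mbp (3983 bp) and Celf2 (3978 bp), with signals of 5.36, 6.98, 5.46, 5.86 and 4.57. Mbp encodes myelin basic protein of oligodendrocytes, and Prss52 is a serine protease gene whose neighbouring peaks lie inside Msra. Signal is a number that the authors deposited for each peak, without a stated normalization, and it is used here to describe and rank peaks.

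The median signal was 8.29 for members, 6.29 for distal peaks of 2000 to 4000 bp, 3.36 for all distal peaks under 4000 bp and 12.5 for broad promoter peaks. Members ran from 3.03 to 32.1, and 101 of 376 fell among the top 1% of all distal peaks by signal. At the low end, a 4777 bp member in Ank2, the gene of ankyrin-B, a protein that ties membrane proteins to the cytoskeleton, had 3.03, with 6.48 in pool I and 3.90 in pool J. Within the members, width and signal were only weakly related (Spearman rank correlation = 0.227 across 376 members, which share the same alignments). Members were chosen on width and 197 of the 376 were under 5000 bp, so this value describes a restricted range of widths and not distal peaks of every width.

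**Figure D1:**
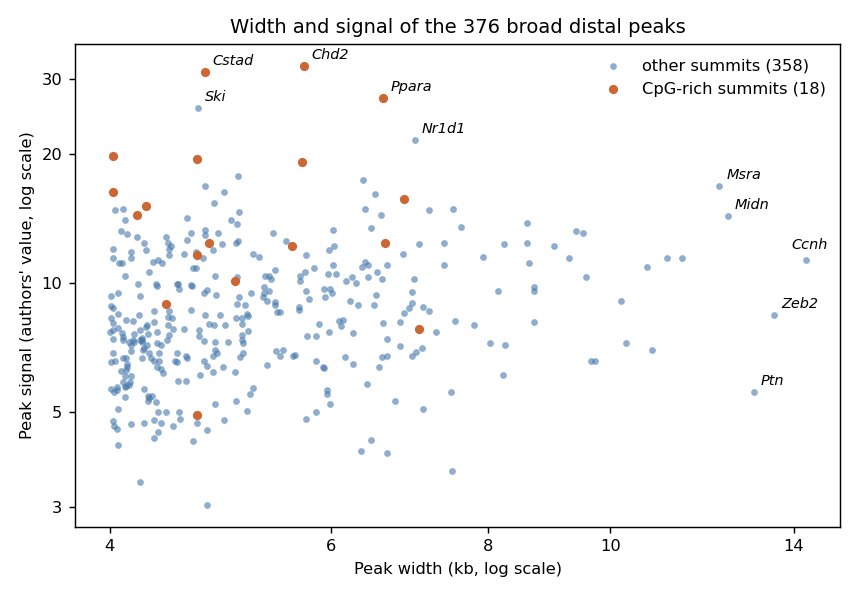
Width in kb and signal of each of the 376 members, both on log axes, 1 point per peak. The 18 members in orange have CpG-rich summits. The labels name the nearest coding gene of the 5 widest members and of the 5 with the highest signal, and the strongest members (Chd2 and Cstad) are about as wide as the median member.

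The widest member lay alone in a gene-poor stretch. It spanned 14344 bp at chr13:84748611-84762954, 426 kb upstream of Ccnh, which encodes cyclin H of the transcription factor complex TFIIH, and 474 kb from the nearest long non-coding TSS. Its signal was 11.3, with 14.9 in pool I and 9.09 in pool J, and 2 other peaks lay within 50 kb, against a median of 21 for members. Its GC content was 34.4%, near the bottom of the members' range of 33.4% to 59.3%.

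Zeb2, which encodes a zinc finger repressor needed for cortical neuron and glial development, held 3 of the 12 widest members in its body. They measured 13451, 10763 and 9719 bp and had signals of 8.39, 6.95 and 6.55. Pool I gave 10.8, 12.7 and 12.7 for them and pool J gave 6.24, 5.31 and 7.47, so pool I was the higher for each. The 2 values of 12.7 are the same value, because 1 pool I peak of 25352 bp spanned both members. The Zeb2 body held 2 further members. One of 4747 bp was separated from the widest by 373 bp and had 9.80 in pool I and 5.22 in pool J. The other, of 4687 bp and with Gtdc1 as its nearest start, had a joined signal of 4.92, with 6.96 in pool I and 4.43 in pool J.

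Others among the 12 widest lay in genes of growth factors, membrane traffic and metabolism. Ptn, the gene of the secreted growth factor pleiotrophin, held a member of 12991 bp with 9.36 in pool I and 5.33 in pool J. Napa, the gene of alpha-SNAP, which takes apart SNARE complexes after vesicle fusion, held one of 11394 bp with 15.3 in pool I and 9.42 in pool J. In Abhd2, which encodes a serine hydrolase, a member of 10284 bp had 9.36 in pool I and 7.38 in pool J, and the pool J list showed it as a single peak.

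Sept7, the gene of a septin of the cytoskeleton, had a member of 10164 bp lying 39.0 kb upstream, with 11.8 in pool I and 7.66 in pool J. Its summit lay outside the coding and long non-coding genes of the basic set. Midn, which encodes a nuclear protein that hands other proteins to the proteasome, had one of 12393 bp that began 1347 bp inside its nearest basic-set TSS. That Midn member touched a further Midn TSS of the full GENCODE annotation and a curated RefSeq TSS, so the label distal rests there on the annotation used. The remaining wide members lay in Msra and Tcf4 and are described with those genes.

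The member of highest signal stood 72.1 kb upstream of Chd2, which encodes a chromatin remodelling helicase whose loss causes epilepsy in humans. It had a signal of 32.1 over 5710 bp, with 36.9 in pool I and 24.0 in pool J. The TSS of the long non-coding gene Gm44734 was 4.92 kb away. Its summit is the first sequence printed above. No TSS of a coding or long non-coding transcript in the full GENCODE or RefSeq annotations lay within 1 kb of the member.

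The second and the seventh by signal were both nearest to Cstad, a gene named for its induction in activated T cells. They had signals of 31.0 and 19.5 and widths of 4756 and 4687 bp. Pool I gave 37.2 and 23.3 for the pair and pool J gave 26.1 and 15.6. The other Cstad neighbour had a signal of 13.3. The member with 31.0 had its summit in the long non-coding genes 9330198N18Rik and Gm14486. A RefSeq start of Gm32316, not a curated one, lay within 1 kb of the members with 31.0 and 13.3.

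The third by signal was nearest to Ppara, which encodes a nuclear receptor that senses fatty acids, but its summit lay in the long non-coding gene Lncppara. It had a signal of 27 over 6600 bp, with 30.7 in pool I and 22.6 in pool J. The other two Ppara members followed it in the same non-coding gene, and all 3 lay within 18.5 kb with signals from 13.1 to 27. The middle one had 15.7 in pool I and 22.6 in pool J, because 1 pool J peak of 9904 bp, the widest of that list, spanned it and the strongest member and gave both the same value.

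Ski, an inhibitor of TGF-beta signalling, had a member 9.89 kb upstream with a signal of 25.6, 30.2 in pool I and 20.7 in pool J. A RefSeq start of Gm52713, not a curated one, lay within 1 kb of that Ski member. Nr1d1, which encodes the clock repressor REV-ERB alpha, had one 5.44 kb upstream with 21.5, and with 26.5 in pool I and 13.1 in pool J. Snx10, the gene of an endosomal sorting nexin, had one 46.1 kb downstream of its TSS with 19.8, and with 26.4 in pool I and 13.9 in pool J.

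Every one of the 10 members of highest signal had a higher value in pool I than in pool J. The same held for 97.1% of all members, 94.7% of distal peaks of 2000 to 4000 bp and 94.2% of broad promoter peaks.

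Measured in the pools separately, all 376 members were overlapped by a peak of pool I and by a peak of pool J. Over all autosomal distal peaks the share in both pools was 46.2%, and it was 99.8% for distal peaks of 2000 to 4000 bp. The pools share their reads with the replicated list, and wide and strong peaks have more bases and more reads with which to overlap, so nothing is read from the members' count. The 2 pools differed in how they drew the same regions. Pool I peaks covered 99.4% of the members' length and pool J peaks 84.8%. Pool I showed 332 of 376 members as 1 single peak, and pool J showed 62, with 126 in 2 pieces and 188 (50%) in 3 or more. For distal peaks of 2000 to 4000 bp, pool J showed 46.3% as a single peak and 13.2% in 3 pieces or more. For broad promoter peaks, whose median width was 4985 bp, it showed 32.9% as a single peak and 29.8% in 3 pieces or more.

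A single peak of 4000 bp or more overlapped 359 members among the peaks of pool I and 87 among those of pool J. Applied to each pool's own list, the same rule found 606 peaks in pool I and 97 in pool J, and these overlapped 349 and 87 of the 376 members. The pseudoreplicated list of both pools gave the same count as the replicated list, 376, and each of those overlapped a member.

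Highest pool I signal over a member had a median of 10.9 and a range of 4.57 to 37.2, and pool J signal a median of 6.86 and a range of 2.54 to 26.1. Pool I was above pool J in 365 of 376 members, with a median ratio of 1.55 and a range of 0.695 to 4.43. For distal peaks under 4000 bp that both lists held, the median ratio was 1.42, so the higher pool I values were not confined to the members. The depth of each pool is not in the lists, and its part in the ratio was not tested. A pool peak that spans several members gives each of them the same value, which applied to 16 members in pool I and 2 in pool J. A pool peak can also run past a member into DNA outside it, and its value then need not be the member's own. The widest pool I peak over a member had a median of 5446 bp and the widest pool J peak 2808 bp, against a median member width of 4872 bp. How far this raised the ratio or its range was not tested. Across the 376 members the pools ordered them alike (Spearman rank correlation = 0.748, a description of regions and not a test over animals).

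In 11 members pool I was not the higher. In the 5655 bp Grin2b member the values were 6.62 in pool I and 7.61 in pool J, and in the wider Myt1l member 10.3 in pool I and 11.4 in pool J. Of the 376 members, 5 were covered to less than 50% by pool J peaks. The lowest was a 4344 bp member in Gnao1, the gene of the G protein subunit alpha-o, with 33.9% covered, 11.6 in pool I and 6.31 in pool J.

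**Figure D2:**
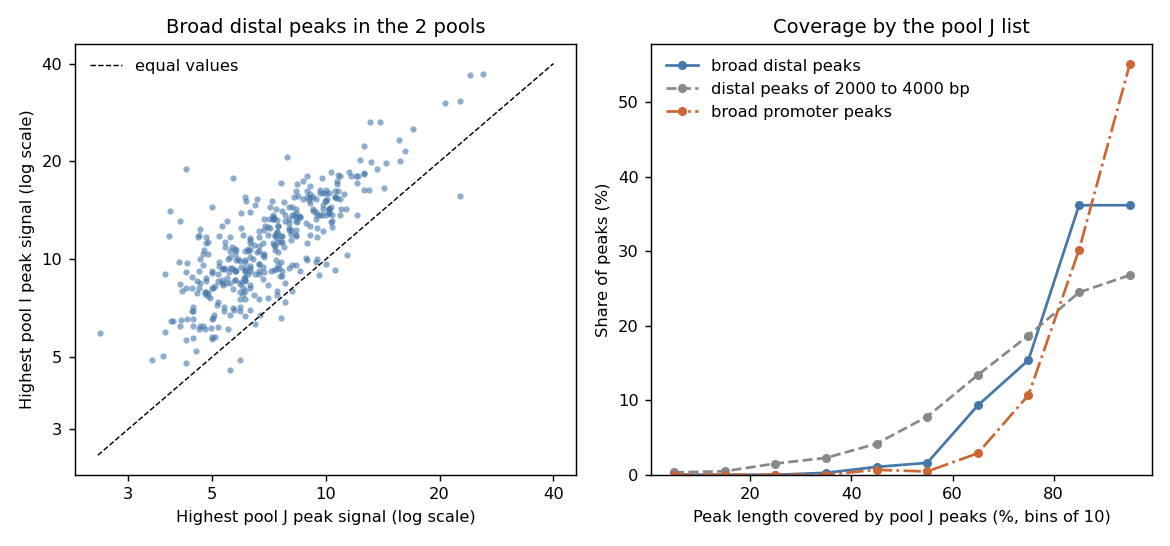
Left, highest pool I signal against highest pool J signal for each of the 376 members on log axes, with a line of equal values; 365 points lie above it. Right, share of peaks by the percentage of their length covered by pool J peaks, in bins of 10, for broad distal peaks, distal peaks of 2000 to 4000 bp and broad promoter peaks; the medians are 87.1%, 80.4% and 91.0%.

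Members lay inside genes and downstream of the nearest coding start about as often as other distal peaks. The summit fell in a coding or long non-coding gene for 295 of 376 members (78.5%), for 74.0% of distal peaks of 2000 to 4000 bp, for 72.5% of all distal peaks under 4000 bp and for 91.1% of broad promoter peaks. The nearest coding TSS lay upstream of the member, so that the member was on the transcribed side, for 259 members (68.9%), for 66.1% of distal peaks of 2000 to 4000 bp and for 64.9% of all distal peaks under 4000 bp. The median distance from the member's edge to that TSS was 31946 bp, with quartiles of 10291 and 72986 bp. It was 32291 bp for distal peaks of 2000 to 4000 bp and 34462 bp for all distal peaks under 4000 bp. Members were 100 kb or more away in 17.8% of cases, against 19.7% for distal peaks of 2000 to 4000 bp and 23.0% for all distal peaks under 4000 bp.

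**Figure D3:**
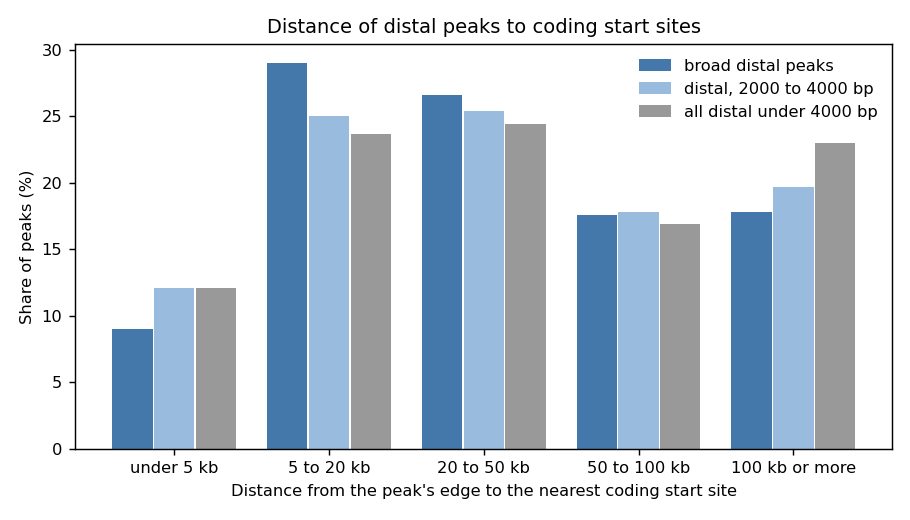
Share of broad distal peaks, distal peaks of 2000 to 4000 bp and all distal peaks under 4000 bp in 5 ranges of distance from the peak's edge to the nearest coding start site. Of the broad distal peaks 29.0% lie 5 to 20 kb away, against 23.7% of all distal peaks under 4000 bp.

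The 5 members farthest from any coding TSS lay beside genes of RNA processing, transcription and phospholipid signalling. A 4516 bp member stood 632594 bp upstream of Celf2, which encodes a splicing factor of neurons, and had 8.46 in pool I and 4.64 in pool J. A 5718 bp member lay 603577 bp past the TSS of Lmo4, which encodes a transcription cofactor of the cortex, and had 15.5 in pool I and 6.11 in pool J. The Lmo4 member was 5.05 kb from the start of the long non-coding gene Gm33758.

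A 9390 bp member stood 557679 bp upstream of Mef2c, which encodes an activity-dependent transcription factor of excitatory neurons. It had 15.4 in pool I and 10.7 in pool J, and its GC content, 33.4%, was the lowest of all members. Beside Plcl1, the gene of an inactive phospholipase C-like protein that binds inositol phosphates, 2 members of 5346 and 6796 bp lay 481795 and 487267 bp past its TSS with 126 bp between them. They had 13.3 and 8.91 in pool I, and 7.98 and 7.65 in pool J.

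Members stood among other peaks. The median number of other peaks within 50 kb was 21 for members, 14 for distal peaks of 2000 to 4000 bp, 9 for all distal peaks under 4000 bp and 13 for broad promoter peaks. The gap to the nearest peak was 189 bp at the median, and 199 of 376 members (52.9%) had another peak within 200 bp. That share was 42.9% for distal peaks of 2000 to 4000 bp, 30.6% for all distal peaks under 4000 bp and 47.3% for broad promoter peaks. A promoter peak lay within 1 kb of 32 members (8.51%), of 6.65% of distal peaks of 2000 to 4000 bp and of 5.69% of all distal peaks under 4000 bp. The gap between such a member and the promoter peak was thus no more than 1 kb.

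Of the 376 members, 166 had another member within 100 kb, and 23 groups linked in this way held 3 or more. Joining neighbouring distal peaks into stitched domains gave 18226 stitched domains, of which 286 held a member. Chromosome 2 had the most members, 44, and also the most distal peaks, 4485. Per 1000 distal peaks it had 9.81 members, against 11.5 on chromosome 14 and 11.2 on chromosome 18. Of the 24 members on chromosome 14, 18 came from 1 locus.

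That locus was Msra, which encodes methionine sulfoxide reductase A, an enzyme that repairs oxidised methionine. In a stretch of 441 kb on chromosome 14 lay 18 members, and 16 of them had their summit inside the Msra gene (chr14:64122625-64455903, 333 kb). These 16 covered 31.1% of the gene's length, or 104 kb. The TSS of Prss52 beyond the far end of the gene was nearer to 6 of them, so a count by nearest TSS gives Msra 11 members, including one in the long non-coding gene Gm47202, and Prss52 6. Prss52 itself had no promoter peak, whereas the Msra promoter peak had a signal of 11.9.

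Within the Msra gene, signals ran from 5.0 to 19.1 with a median of 10.6. Pool I values ran from 7.37 to 21.5 with a median of 14.3, and pool J values from 4.17 to 16.2 with a median of 8.81. Pool I was above pool J in all 16. The widest, of 12159 bp and 10.9 kb from the nearest Msra TSS, had 19.8 in pool I and 14.4 in pool J, and another of 10701 bp had 14.1 in pool I and 9.28 in pool J.

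The strongest Msra member (19.1, with 21.5 in pool I and 16.2 in pool J) differed from the others in sequence and annotation. Its summit window held 16 CpG dinucleotides at an observed to expected ratio of 0.784, while 15 of the 16 members in the gene had a ratio under 0.4. It touched an Msra start of the full GENCODE annotation and a curated RefSeq start, neither of which is in the basic set. Beyond the gene's 5′ end, the member nearest to Kif13b, which encodes a kinesin motor, had 22.3 in pool I and 12.6 in pool J.

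**Figure D4:**
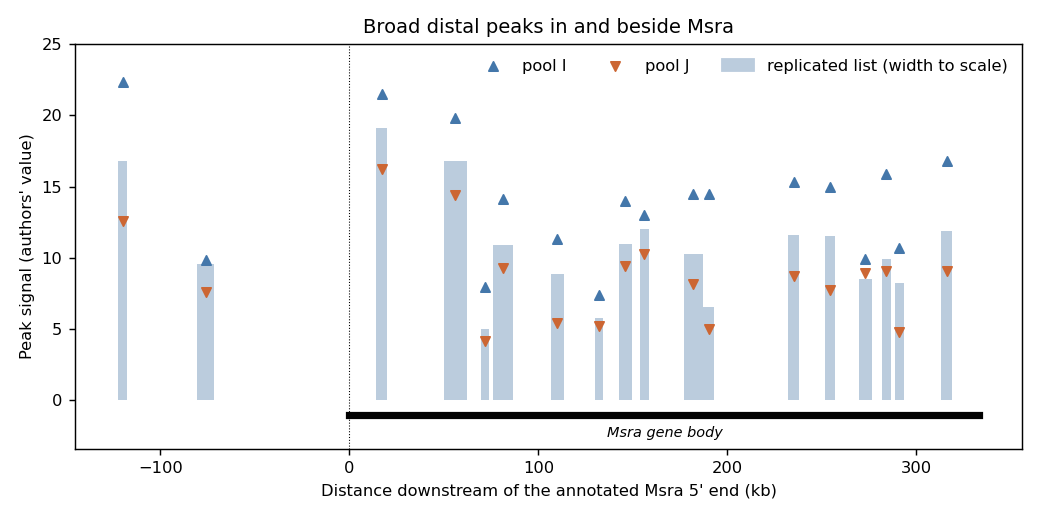
Signal of the 18 members in and beside Msra against distance in kb downstream of the annotated 5′ end of the gene. Shaded boxes are peaks of the replicated list with width to scale, upward triangles the highest pool I signal and downward triangles the highest pool J signal; pool I lies above pool J at all 18, and members run through the whole gene body.

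The 376 members had 284 nearest coding genes, 1.36% of the 20807 autosomal coding genes, and 230 of these genes had 1 member each. The genes were long: their median length was 65.2 kb, against 31.4 kb for coding genes nearest to any distal peak and 17.6 kb for all autosomal coding genes. Of the 284 genes, 101 were 100 kb or longer, which is 4.26% of the autosomal coding genes of that length. A promoter peak was present at 256 of the 284 (90.1%), against 78.4% of genes nearest to any distal peak and 59.3% of all autosomal coding genes. A broad promoter peak stood at 74 of the 284 (26.1%) and at 3.92% of genes nearest to any distal peak. These shares describe neighbours in 1 list and carry no error over animals.

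Besides Msra, Prss52 and Zeb2, 14 coding genes were nearest to 3 or more members. Celf2 had 6, of which 5 lay inside its body of 970 kb, with signals from 6.53 to 14.4. The strongest Celf2 member, with 17.2 in pool I and 12.1 in pool J, and the one beside it, with 15.1 in pool I and 10 in pool J, both touched Celf2 starts of the full GENCODE and the curated RefSeq annotations.

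Fbxw7, which encodes the substrate receptor of a ubiquitin ligase, had 5 members with signals from 3.64 to 10.4, and its neighbour Gatb, which encodes a subunit of a mitochondrial amidotransferase, had 4 with signals from 9.29 to 10.8. The summits of all 9 lay in Gm37240, a coding gene model that overlaps both genes. Ttc7b, a scaffold gene of phosphoinositide synthesis at the membrane, had 4 members on chromosome 12 with signals from 4.71 to 10.2.

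Genes with 3 members each included Rcvrn, Chst1, Myo5c, Ppara, Cstad, Ntrk2, Bcl11a and Tcf4. Rcvrn, which encodes the photoreceptor calcium sensor recoverin, had no promoter peak, and its 3 members and the 2 of Gas7 all had their summits in Gas7. Gas7 is a gene of neurite outgrowth that is expressed in brain, and its promoter peak had a signal of 8.29. Chst1, the gene of a keratan sulfate sulfotransferase, had members of up to 8245 bp and signals of 6.86 to 8.20. Of the group of 3 at Myo5c, 2 had their summit in Myo5c and the other in Myo5a, the gene of a myosin motor of neurons.

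Genes of cortical transcription factors were the list with most neighbours: 13 of 30 were nearest to a member, with 24 members between them, against 1.36% of all autosomal coding genes. The list's genes are long, with a median of 98.3 kb, and each of the 30 was nearest to some distal peak. Of the 30, 15 were longer than 100 kb. Over autosomal coding genes of 100 kb or more the share was 4.26%. Of the 8938 coding genes nearest to any distal peak, 284 were nearest to a member. The lists were written with earlier results of these data known, and no test was made on them. Tcf4, a basic helix-loop-helix factor gene, had 3 members, one of 11120 bp with 15.6 in pool I and 9.09 in pool J, and one of 5064 bp with 20.0 in pool I and 15.7 in pool J. The third Tcf4 member, of 5588 bp, had 6.94 in pool I and 5.94 in pool J.

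Bcl11a, a zinc finger factor gene of deep-layer and other projection neurons, had 3 members inside its body. Pool I gave 9.03, 9.41 and 11.9 for them and pool J gave 6.22, 5.65 and 4.62. The last of these had the lowest joined signal of the group, 4.00, although its pool I value was the highest. Mef2c had another member, of 5917 bp and 2351 bp downstream of its TSS, with 18.9 in pool I and 4.28 in pool J. That was the highest ratio of pool I to pool J among the 376 members. The joined signals of the 2 Mef2c members were 6.32 and 13.2, and a Mef2c promoter peak had 14.2. The 18.9 came from 1 pool I peak of 12684 bp, which reached beyond the 5917 bp member. Whether the highest signal of that peak lay inside the member was not tested.

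Pou3f3 and Pou3f2 encode POU-domain factors of upper-layer neurons. Pou3f3 had 2 members, with 18.5 and 12.7 in pool I and 11.5 and 7.48 in pool J, and the first had its summit in the long non-coding gene Pantr1. Both touched a curated RefSeq start, that of Gm46091 for the first and of 2900092D14Rik for the second. Both also had CpG-rich summits, with observed to expected ratios of 0.788 and 0.886. The second lay wholly in exon sequence, 1529 bp downstream of a Pou3f3 TSS. Pou3f2 had 1 member 4878 bp upstream, with 9.66 in pool I and 6.68 in pool J. Nfix, of the nuclear factor I family, had 2 members of 8612 and 8578 bp, with 15.3 and 14.3 in pool I and 6.57 and 10.2 in pool J.

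The other cortical factors had single members or pairs, with joined signals from 5.39 to 12.3. Myt1l, a gene of neuronal identity, had 2 members with joined signals of 8.29 and 12.3, and Mef2d had 1 with 10.2. Egr1, an immediate early gene induced by neuronal activity, had 1 with 9.85 that lay 6863 bp upstream. Foxp1, Nfib and Sox5 had 1 each, with 5.39, 5.90 and 7.24. Egr1 was also the 1 gene of 26 in the activity-regulated list.

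Excitatory neuron genes gave 5 of 18. For this list and those below, the share over all autosomal coding genes was 1.36%, and over those of 100 kb or more 4.26%. Grin2b, which encodes the GluN2B subunit of NMDA receptors, had 5 members, all inside its body and 262460 to 373073 bp from its TSS, with signals from 5.57 to 8.66. Camk2a, the gene of the alpha subunit of CaM kinase II, had 2 members within 15841 bp of its TSS, with 10.4 and 10.7 in pool I and 4.89 and 5.80 in pool J. Rtn4r, which encodes the Nogo receptor, had 1 of 9510 bp with 16.4 in pool I and 10 in pool J. Sv2b, a synaptic vesicle gene, had 2 with 8.39 and 6.26 in pool I and 5.94 and 4.12 in pool J, and Cck, a neuropeptide gene, had 1 with 8.70 in pool I and 6.84 in pool J.

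RNA-binding and splicing factor genes gave 5 of 20: Celf2, Celf4, Rbfox3, Qk and Srrm4. Celf4 had a 6622 bp member with 16.2 in pool I and 8.36 in pool J that touched a curated RefSeq start. Rbfox3, which encodes the neuronal marker NeuN, had 2 with 13.3 and 8.19 in pool I and 7.24 and 5.01 in pool J. The member nearest to Qk, which encodes the splicing factor Quaking of glia, lay 171108 bp upstream, and Qk was the 1 gene of 22 from the oligodendrocyte list. Srrm4, a splicing factor gene of neuronal microexons, had 1 member with 10.6 in pool I and 6.68 in pool J.

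Synaptic scaffold and adhesion genes gave 5 of 27, and their list is one of long genes with a median of 295 kb. Dlgap3 encodes a scaffold of excitatory synapses, and its member had 13.3 in pool I and 6.87 in pool J. Kalrn, the gene of a guanine nucleotide exchange factor of dendritic spines, had 2 members with 11 and 9.23 in pool I and 6.65 and 5.75 in pool J. Cadm1, an adhesion gene, had 2 with 9.19 and 10.6 in pool I and 5.80 and 5.57 in pool J. Camk2b, the gene of the beta subunit of CaM kinase II, and Camk2n1, which encodes an inhibitor of that kinase, had 1 each with joined signals of 6.38 and 9.95.

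Neuronal signalling genes, with a median length of 262 kb, gave 4 of 30. Ntrk2, which encodes the BDNF receptor TrkB, had 3 members inside its body with signals from 5.61 to 12.3. Itpr1, the gene of an intracellular calcium channel, had 1 of 8020 bp with 8.74 in pool I and 6.07 in pool J. Gnao1 had 2 nearest members, the wider of 9651 bp with 8.44 in pool I and 5.57 in pool J. Pde10a, the gene of a cyclic nucleotide phosphodiesterase, had 1 upstream with 15.5 in pool I and 10.6 in pool J.

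Cytoskeleton genes gave 4 of 22: Tuba1a, Ank2, Ank3 and Dclk1. Ank3, which encodes ankyrin-G of the axon initial segment, had 2 members with 13.7 and 6.09 in pool I and 12.1 and 4.80 in pool J. Dclk1, a gene of a microtubule-binding kinase, had 1 of 6995 bp with 8.86 in pool I and 7.56 in pool J. Voltage-gated channel genes, with a median length of 249 kb, gave 3 of 29. Among them were the potassium channel genes Kcnh1 and Kcnma1, with joined signals of 4.81 and 7.26.

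No gene was nearest to a member in 7 lists, those of interneurons (0 of 20), oligodendrocyte precursors (0 of 12), astrocytes (0 of 21), microglia (0 of 19), endothelial and mural cells (0 of 20), housekeeping functions (0 of 16) and Hox genes (0 of 20). At 1.36% of all coding genes, a list of about 20 would hold less than 1 such gene, so the zeros are near the background. Those lists also hold shorter genes with fewer distal peaks than the cortical transcription factor list, whose medians were 98.3 kb and 16.5 peaks. The medians were 13.6 kb and 3 peaks for astrocytes and 19.4 kb and 1 peak for interneurons. Endothelial and mural genes, at 40.1 kb and 1.5 peaks, were longer than excitatory neuron genes, at 36.9 kb and 13 peaks. The part of gene length in these counts was not tested. The liver and muscle list gave 2 of 20, Acta1 and Myog, which encode skeletal muscle actin and myogenin. The Acta1 neighbour (signal 14.9) had its summit in Gm20388. The Myog neighbour (4.67), 13245 bp upstream, had its summit outside the coding and long non-coding genes of the basic set. A RefSeq start of Gm32221, not a curated one, lay within 1 kb of it.

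**Figure D5:**
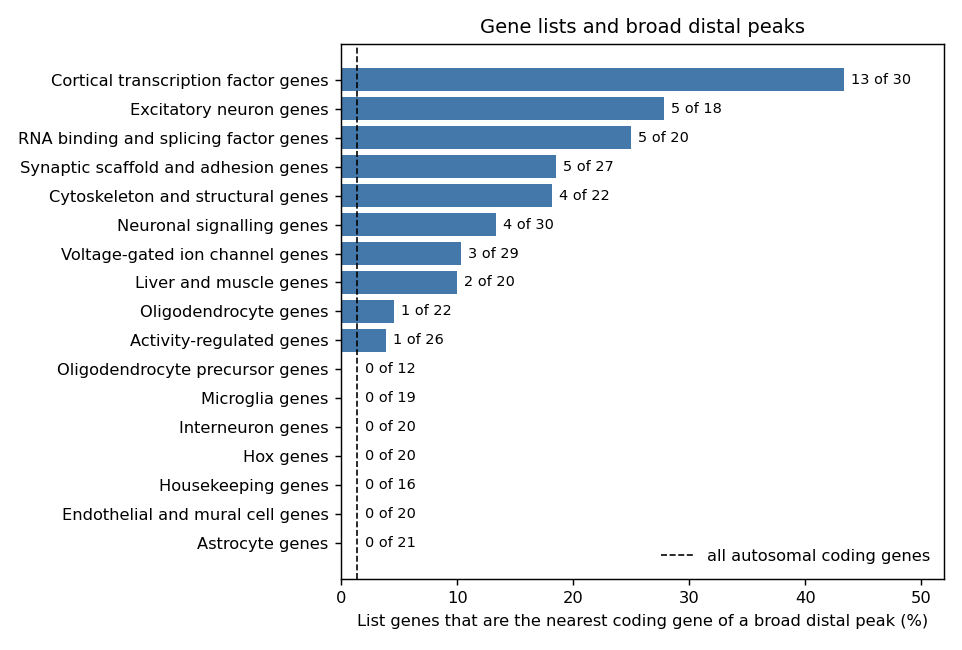
Percentage of the autosomal genes in each of 17 lists that are the nearest coding gene of a broad distal peak, with the count beside each bar. The dashed line is the 1.36% of all autosomal coding genes. The share over autosomal coding genes of 100 kb or more, 4.26%, is not drawn. Cortical transcription factor genes reach 13 of 30 and 7 lists have none.

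The members' DNA resembled that of other distal peaks more than that of broad promoter peaks. Median GC content over the whole peak was 48.5% for members, 47.4% for distal peaks under 4000 bp and 52.9% for broad promoter peaks. Within 100 bp of the summit it was 52.7%, 48.8% and 61.7% in the same order. The median observed to expected CpG ratio at the summit was 0.188 for members, 0.193 for distal peaks under 4000 bp and 0.577 for broad promoter peaks.

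A small subset did look like CpG islands at the summit, with GC of at least 50% and a CpG ratio of at least 0.6. This held for 18 of 376 members (4.79%), for 3.82% of distal peaks of 2000 to 4000 bp, for 2.28% of all distal peaks under 4000 bp and for 46.7% of broad promoter peaks. The 18 included 6 of the 10 members of highest signal, those of Chd2, Ppara, Snx10 and Msra and both of Cstad. Their median signal was 14.8, against 8.14 for the other 358. Of the 18, 10 touched a TSS window of the full GENCODE or RefSeq annotations, as did 91 of the 358.

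The label distal was checked against these wider annotations. A TSS window of the full GENCODE annotation touched 60 of 376 members (16.0%), one of any RefSeq transcript touched 67, predicted models included, and one or the other touched 101 (26.9%). For distal peaks under 4000 bp the last share was 10.5%, and for those of 2000 to 4000 bp 19%, and wider peaks have more bases with which to meet a start. Curated RefSeq transcripts alone touched 19 members, among them those at Midn, Msra, Celf2, Celf4, Pou3f3, Nfix, Gas7, Speg and Aatk. For the other 275 members no start of a coding or long non-coding transcript was found within 1 kb in these annotations. Starts of other gene types were not part of that check. In the basic set a window of any gene type touched 7 members (1.86%), against 1.63% of distal peaks of 2000 to 4000 bp.

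Short motifs were searched on both strands within 100 bp of each summit, as letters and not as bound sites. CAGCTG, a palindrome read by basic helix-loop-helix factors, was found in 72 members (19.1%), in 13.5% of distal peaks under 4000 bp, in 16.2% of those of 2000 to 4000 bp and in 15.1% of broad promoter peaks. AGGTCA, the core of nuclear receptor sites, was found in 18.6% of members, 14.7% of distal peaks under 4000 bp, 16% of those of 2000 to 4000 bp and 9.56% of broad promoter peaks. CAGATG, a form read by NeuroD factors, was in 16.8% of members, 17.2% of distal peaks under 4000 bp and 17.8% of those of 2000 to 4000 bp, and TTGGCA, part of the nuclear factor I site, in 12%, 11.5% and 11.6% in the same order. The homeodomain core TAATTA was in 8 members (2.13%), in 4.26% of distal peaks under 4000 bp and in 3.70% of those of 2000 to 4000 bp. GGGCGGG, read by SP and KLF factors, was in 8 members (2.13%), in 1.63% of distal peaks under 4000 bp, in 2.87% of those of 2000 to 4000 bp and in 10.2% of broad promoter peaks. The GC content of the windows differs between these classes, and its part in the shares was not tested.

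Enhancers of the VISTA collection, which tests DNA fragments for activity in transgenic mouse embryos, are listed in RefSeq and were not used to choose the members. Such an element was overlapped by 8 members (2.13%), against 0.498% of all distal peaks and 1.39% of distal peaks of 2000 to 4000 bp. Per length, these elements made up 1.11% of the members' bases, 1.23% of those of distal peaks of 2000 to 4000 bp and 0.603% of those of all distal peaks under 4000 bp. Per base, the members did not exceed the next narrower class.

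RefSeq lists forebrain activity for the elements of 4 of these 8 members. The element had forebrain activity for 12 of 35 distal peaks of 2000 to 4000 bp with one and for 71 of 250 of all distal peaks under 4000 bp with one, and nothing is read from so few members. Element mm1606, near Trmt61a, a tRNA methyltransferase gene, was active in the forebrain of 6 of 6 embryos and shared 3079 bp with a member of signal 9.46. Element mm1449, near the neuronal tubulin gene Tuba1a, was active there in 6 of 7 and shared 3866 bp with a member that had 15.2 in pool I and 9.01 in pool J. Element mm1458 lay whole within a member in Gnao1 and was active there in 5 of 7. Element mm14 at Ntrk2 was active there in 5 of 6 but shared only 134 bp with its member.

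The other 4 elements had activity recorded elsewhere. Element mm318 lay whole within the Ski member of signal 25.6, and RefSeq gives activity in the heart of the embryo. Element mm21, inside Nfix, is listed for midbrain and heart. Element mm1503, near the tetraspanin gene Tspan14, is listed for sensory ganglia, limb, midbrain and hindbrain, and mm1664, near Cxxc5, for somite, limb and facial mesenchyme. The assays were made in embryos and the peaks come from adult cortex, so the 2 readouts differ in stage.

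The hairpins of 3 microRNAs lay inside 2 members (0.532%), beside 0.478% of distal peaks of 2000 to 4000 bp and 0.102% of all distal peaks with a hairpin. The mature sequences of these microRNAs are shown because they are the small RNA products encoded within the marked DNA. The 6961 bp member in Aatk, a kinase gene of neurons, held Mir338 on the minus strand and Mir3065 on the plus strand, which overlap each other, and had 9.82 in pool I and 6.12 in pool J. MiR-338 is made from the Aatk transcript and is known in mouse for its role in oligodendrocyte differentiation. In the RefSeq sequences below capitals mark the seed, bases 2 to 8.
mmu-miR-338-3p: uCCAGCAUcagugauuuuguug
mmu-miR-338-5p: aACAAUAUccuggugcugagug
mmu-miR-3065-5p: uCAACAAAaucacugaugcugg
The 7612 bp member in Nfic, another nuclear factor I gene, held Mir1191b on the minus strand and had 17.8 in pool I and 5.69 in pool J.
mmu-miR-1191b-3p: aGACUCACuauguagcccaagc
mmu-miR-1191b-5p: uCAGGCUAcagagcgagaaccu
The 5 seeds differ from each other. The H3K27ac level says nothing of the amount of any of these microRNAs.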

How the data were processed

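H3K27ac ChIP-seq peaks of left cerebral cortex from 2 pools were used as the authors deposited them, in 4 lists of 10 columns each on mm10. Per the file descriptions, a replicated and a pseudoreplicated list come from both pools, and each pool has 1 pseudoreplicated list of its own. The deposited signal of a peak is the peak caller's value, with normalization, aligner and caller not given in the sources used here. Per peak, the authors also deposited −log10 p, −log10 q, the summit and a display score that was not used in any result. The lists hold no read counts, so the depth is unknown and no counting interval could be given. Values per pool are the highest signal among overlapping peaks (at least 1 bp shared).

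Genes came from GENCODE vM21 basic, long non-coding genes including those of unclassified (TEC) type, with the full set, RefSeq transcripts, RefSeq VISTA elements and RefSeq microRNAs as checks, and sequence came from GRCm38.p6. Distances run from the peak's edge, summit windows span 201 bp, and stitched domains join distal peaks within 12500 bp of each other. Medians, counts and shares were computed with Python 3.11.15 and numpy 2.4.6. No test was made: there is 1 group, the 2 pools give 2 lists, and regions of 1 list are not replicates. Overlap functions were tested on simulated data.

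Named were the 12 widest members, the 10 of highest signal, the 5 farthest from a coding TSS, the 5 peaks on either side of the threshold, coding genes nearest to 3 or more members, and genes of the lists nearest to a member. Members described at VISTA elements, microRNAs and low pool J coverage were chosen after their values were seen. The members and lists were chosen with earlier results of these data known. Some members that these rules name are not reported here.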

Additional observations from a re-analysis of the deposited data

How the results depend on the processing

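Most of the results kept their values when the TSS window or the gene types were changed. All 376 members had −log10 q of at least 5, so that threshold could not change their number. The pseudoreplicated list of both pools comes from the same pools and gave the same values, so it is no separate check. The number of members was 967 at a width of at least 3000 bp and 179 at 5000 bp, and the number of nearest coding genes was 657 and 146. The alternatives that joined peaks or used wider annotations were chosen after seeing the data: joining peaks with a gap of at most 200 bp gave 749 members, a gap of at most 500 bp gave 1188, the full GENCODE annotation left 316 and leaving out TEC genes gave 387. With 1 pool left out, so that the rule was applied to the list of the other pool, the number of members was 97 to 606, their median signal 7.79 to 9.62, the median distance to a coding TSS 18886 to 32876 bp and the number of nearest genes 82 to 440; the low counts are those of pool J. Median GC was 52.7% within 100 bp of the summit. The share of members found in both pools was 98.7% when at least 50% of the member had to be covered by each pool and 52.4% when 1 single pool peak and the member had to overlap by 50% of both. Pool J peaks with −log10 q of at least 5 covered 79.0% of the members' length. Leaving out the members in Msra changed none of the 3 values recomputed without them by 1.5 times. No paired analysis was possible because there is 1 group and no test. Depth is not in the lists, so what it limits cannot be stated.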

Other observations

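A gene can hold a member without being its nearest coding start. A 9016 bp member in Trio, the gene of a guanine nucleotide exchange factor of neurons, had 16.2 in pool I and 8.91 in pool J, and its nearest start was that of Otulinl, 100876 bp away. It was picked after its values were seen.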
